A study of Mus musculus with 4 samples.

Results

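The genes described here are 10 of the 31053 in the count tables: Trp53, Cdkn1a, Mdm2, Ccng1, Phlda3, Bax, Cdkn2a, Cdkn2b, Gdf15 and Sesn2. They were chosen by name, as genes of the DNA damage response and of cell cycle arrest, and were followed across marker-defined cell types of mouse back skin after a mutagen. All 10 had at least 1 UMI (unique molecular identifier, 1 counted transcript) in each of the 4 single-cell libraries. Mice were on the BALB/c background, with sex and age not stated in the labels. One library came from wild-type (WT) mice and one from Cd226-/- mice, which lack the activating immune receptor CD226; both received 25 µg of the mutagen DMBA on shaved back skin and, starting 1 week later, 5 µg of the tumour promoter TPA weekly, 3 times. Each treated library pooled skin cells of 3 mice taken 3 weeks after treatment, sorted into CD45+ (immune) and CD45- cells and mixed in equal parts. The labels do not say from which dose the 3 weeks were counted. The other two libraries came from untreated (naive) skin, each with WT and Cd226-/- cells mixed in equal parts, CD45- cells in one and CD45+ cells in the other. Untreated Cd226-/- skin therefore cannot be told apart from untreated WT skin, and no library received TPA without DMBA or DMBA without TPA.

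The protein p53, encoded by Trp53, is held at a low level by the ubiquitin ligase Mdm2 and is stabilised when DNA is damaged. It then raises transcription of arrest genes such as Cdkn1a (p21, an inhibitor of cyclin-dependent kinases), of Mdm2 itself, of Ccng1 (cyclin G1), of Phlda3 (a repressor of Akt signalling) and of the cell death gene Bax, so its own mRNA is not a readout of its activity. Cdkn2a and Cdkn2b encode further inhibitors of cyclin-dependent kinases (p16Ink4a and p15Ink4b) and are widely used as markers of senescence, a lasting arrest. Cdkn2a also encodes p19Arf, which restrains Mdm2. Gdf15 (a secreted stress cytokine) and Sesn2 (sestrin 2, an inhibitor of growth signalling) are induced both by p53 and by the integrated stress response.

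The annotated positions follow, in GRCm38 with GENCODE vM21 gene models. Trp53 spans chr11:69580359-69591873 on the plus strand, Cdkn1a chr17:29090976-29100727 on the plus strand and Phlda3 chr1:135766119-135769136 on the plus strand. The minus strand holds Mdm2 at chr10:117688875-117710758, Ccng1 at chr11:40748552-40755311, Bax at chr7:45461697-45466898, Gdf15 at chr8:70629393-70632456 and Sesn2 at chr4:132492032-132510501. Cdkn2a (chr4:89274471-89294653) and Cdkn2b (chr4:89306299-89311039) are neighbours on the minus strand. UMIs counted for Cdkn2a cannot separate p16Ink4a from p19Arf. Bax overlaps Gm45808 and Sesn2 overlaps Gm12981 on the same strand, so their counts are less certain.

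The promoters of the members were searched for the p53 decamer consensus, the 10-base unit of which a p53 response element holds a pair. The consensus is its own reverse complement, so a match stands on both strands. Windows ran from 250 bases before to 50 bases after each RefSeq transcript start (GRCm38.p6), giving 13 windows for the 10 members. Matches were present for 5 members, Trp53, Cdkn1a, Mdm2, Ccng1 and Bax. Of all 32851 windows of that length, 8.36% held a decamer. Cdkn1a alone among the members held a pair with a spacer of at most 13 bases, which 24 of all windows did (0.0731%). A match describes letters and shows no binding, and absence of a match applies only to these windows. The stretches of Trp53, Mdm2, Ccng1 and Bax hold a single decamer, not the pair of a response element. Cdkn1a had its match in 1 of its 2 windows. The 5 stretches are shown with the decamers in capitals, 5′ to 3′ on the gene's strand.
Trp53, chr11:69580269-69580308, plus strand, decamer starting 75 bases before the start: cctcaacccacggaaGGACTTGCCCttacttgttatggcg
Cdkn1a, chr17:29090886-29090957, plus strand, first decamer starting 73 bases before the start: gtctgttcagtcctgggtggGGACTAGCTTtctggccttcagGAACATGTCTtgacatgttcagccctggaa
Mdm2, chr10:117710920-117710959, minus strand, decamer starting 186 bases before the start: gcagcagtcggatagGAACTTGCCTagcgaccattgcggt
Ccng1, chr11:40755447-40755486, minus strand, decamer starting 185 bases before the start: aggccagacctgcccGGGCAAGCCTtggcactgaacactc
Bax, chr7:45467075-45467114, minus strand, decamer starting 201 bases before the start: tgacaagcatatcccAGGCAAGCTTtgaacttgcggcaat

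After filtering, the libraries held 7022 cells (WT), 6522 (Cd226-/-), 10575 (naive CD45-) and 3307 (naive CD45+), with median depths from 6505 to 9049 UMIs per cell. Clusters were named as "-like" classes from marker genes, and the members were left out of the genes used for clustering. Immune clusters made up 27.0%, 49.9%, 1.1% and 95% of the cells, in the same order, and between 0.397% and 9.48% of cells were in unnamed clusters. The pairs of libraries shared 5 to 19 cell barcodes each, 68 in all, and 1 of the 155 naive CD45+ fibroblast-like cells shared its barcode with another library. Cd226, the targeted gene, was read with 88 UMIs in lymphocyte-like cells of WT and 42 in those of Cd226-/-, a ratio per class UMI of 0.293 (0.198 to 0.428), so its 3′ reads were lower but not at 0 in the knockout. Those of naive CD45+ skin held 8 UMIs, 4.85 CPM beside 14.2 in Cd226-/-, so a low value alone does not check the labels. Each group is a single library, so nothing here was tested against replicates. Each level is in CPM (the member's UMIs per 1000000 UMIs of the class), with an exact Poisson 95% interval. Each ratio has an exact conditional binomial interval, and both kinds cover counting error only. A member was compared in classes with at least 100 cells in both libraries and at least 50 UMIs over both, and was called past the threshold at 1.5-fold. For each class the naive baseline was the library that held most of its cells.

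In totals over all 4 libraries, counts ranged from 485 UMIs for Cdkn2a, through 1406 for Sesn2 and 2039 for Cdkn2b, to 52006 for Cdkn1a. Per cell class, Cdkn1a was highest in neutrophil-like cells, Trp53 and Bax were lowest in naive neutrophil-like cells, and Phlda3 was at most 5.46 CPM in immune classes other than the mast cell or basophil-like one. Cdkn2a had no UMI in 20 of the 36 pairs of class and library with at least 20 cells, and Cdkn2b had none in 11. Ordered by level, at least 32 of the 35 neighbouring pairs had overlapping intervals for every member, so the exact order carries little information beyond its ends.

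**Figure D1:**
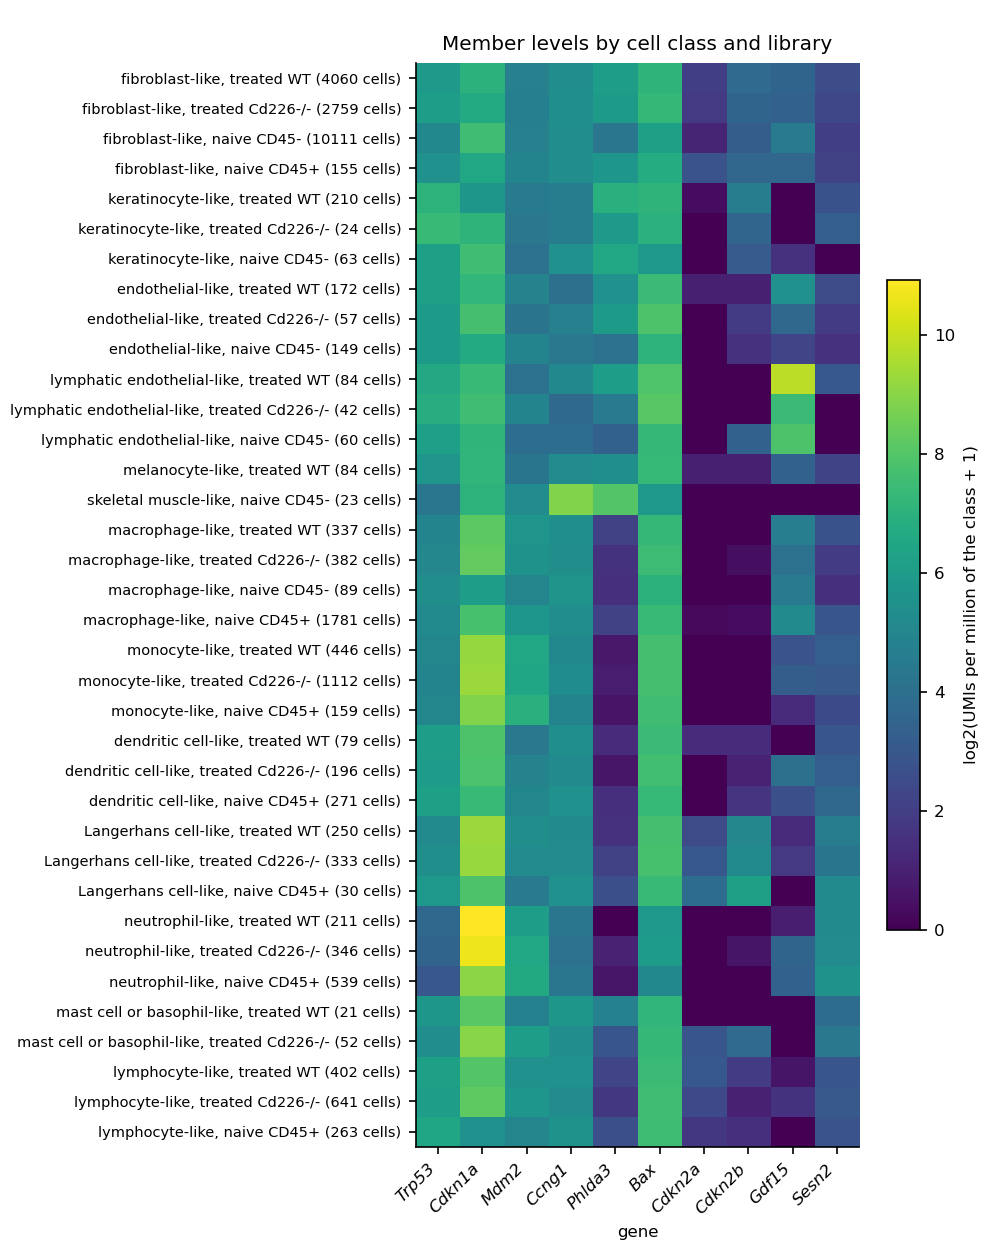
Levels of the 10 members (columns) in 36 pairs of cell class and library with at least 20 cells (rows, cell numbers in brackets), coloured by log2(CPM + 1). Cdkn1a is brightest in treated neutrophil-like cells, Gdf15 in lymphatic endothelial-like cells, and Ccng1 and Phlda3 in the 23 skeletal muscle-like cells.

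Trp53 mRNA was lowest in neutrophil-like cells, at 11.6 CPM (WT), 10.4 (Cd226-/-) and 6.74 (naive CD45+ skin), from 12 to 19 UMIs each. In the treated libraries it was highest in keratinocyte-like cells, at 134 (122 to 147) in WT, 162 (128 to 203) in Cd226-/- and 73.0 (51.4 to 101) in naive CD45- skin. The intervals of these classes did not meet in any library that held both. Lymphocyte-like cells read 74.3, 67.6 and 87.3 CPM in WT, Cd226-/- and naive CD45+ skin. Monocyte-like cells read 31.7, 29.9 and 31.9. In each of these classes all 3 intervals overlapped. The Cd226-/- to naive ratio in lymphocyte-like cells was nonetheless 0.774 (0.622 to 0.966), an interval that excludes 1. Inside the cluster led by Il17a, Il17f and Il22 it was 0.676 (0.522 to 0.875). Over the 23 pairs of class and library with at least 100 cells, log2 levels of Trp53 and Cdkn1a ran in opposite directions (Pearson r = -0.81), a description of points that share libraries and depth.

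Mdm2, the p53 antagonist and p53 target, was highest in neutrophil-like and monocyte-like cells, and there it was not higher after treatment. Monocyte-like cells held 93.1 (82.2 to 105), 84.8 (78.6 to 91.4) and 123 (108 to 140) CPM in WT, Cd226-/- and naive CD45+ skin. Neutrophil-like cells held 68.7, 91.8 and 99.9. Lymphocyte-like cells went the other way, with 45.7 and 53.4 CPM in the treated libraries and 30.3 in naive skin. In fibroblast-like cells the 4 libraries were nearly level, at 26.4, 25.5, 26.3 and 29.3 CPM in the order WT, Cd226-/-, naive CD45- and naive CD45+.

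Among classes large enough for a ratio, Cdkn1a, the arrest gene, differed most between treated and naive skin in neutrophil-like and lymphocyte-like cells. Neutrophil-like cells held 1960 (1879 to 2044) CPM in WT, 1618 (1560 to 1677) in Cd226-/- and 527 (494 to 562) in naive CD45+ skin. Both treated libraries lay far above the naive one, 3.72-fold (3.44 to 4.02) for WT and 3.07-fold (2.85 to 3.31) for Cd226-/-. Thinned to 1000 UMIs, 78.2%, 68.5% and 27.8% of the cells had a Cdkn1a UMI, against 94.3%, 89.9% and 46.8% at full depth. Lymphocyte-like cells of the same naive library had a thinned share of 1.52%. In these comparisons 2 of 5 measured members were past 1.5-fold in each treated library (Cdkn1a and Bax, both higher), where 49.6% (WT) and 52.6% (Cd226-/-) of all genes tested in neutrophil-like cells were past it in either direction. The count of members is therefore not above what the class did as a whole. The Bax difference was not present inside the main neutrophil-like cluster, where the ratios were 0.872 and 0.749. The 19 genes of a dissociation stress list (immediate early and heat shock genes, which cell isolation itself can induce) also moved, with summed levels of 32761, 29503 and 18582 CPM, and their part in the Cdkn1a difference was not tested. Within the main neutrophil-like cluster (led by S100a9, Acod1 and S100a8) the ratios were 4.77 (4.40 to 5.18) and 3.71 (3.43 to 4.02). Scaling by a trimmed mean over genes shifted the ratios in this class down by 0.18 and 0.21 on the log2 scale and left those of Cdkn1a at log2 1.71 and 1.41. The same shift took the WT ratio of Mdm2, 0.688 (0.519 to 0.903) before it, past 1.5-fold downward.

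Lymphocyte-like cells showed the highest Cdkn1a ratio from a low naive level. Their Cdkn1a stood at 254 (231 to 278) CPM in WT, 301 (282 to 322) in Cd226-/- and 44.9 (35.2 to 56.3) in naive CD45+ skin. The ratios to naive were 5.66 (4.42 to 7.33) and 6.72 (5.30 to 8.63), and the treated intervals were clear of the naive one. Thinned shares of cells with a UMI were 19.4%, 21.4% and 1.52%, and full-depth shares 41.3%, 46.6% and 14.8% at median depths of 3490, 3569 and 5757 UMIs. The naive cells had the lowest share although they were the deepest. Dissociation stress genes summed to 15386, 17853 and 15597 CPM in WT, Cd226-/- and naive CD45+ skin. Integrated stress response genes summed to 758, 875 and 575 CPM in the same order, higher in both treated libraries. The part of either list in the Cdkn1a difference was not tested. Neutrophil markers summed to 212, 1024 and 119 CPM in lymphocyte-like cells against 97885 to 139531 in neutrophil-like cells. Of 5 measured members, 2 were past 1.5-fold in each treated library (Cdkn1a and Mdm2, both higher), where 26.9% (WT) and 28.6% (Cd226-/-) of all genes were. The Mdm2 ratios were 1.51 (1.05 to 2.19) and 1.76 (1.27 to 2.47), and that of WT fell below the threshold with doublets kept, with a stricter mitochondrial filter and with each library clustered alone. The Cdkn1a difference was as large within 1 cluster, the one led by Il17a, Il17f and Il22, at 234 and 218 CPM against 32.6, or 7.16-fold (5.29 to 9.88) and 6.69-fold (4.95 to 9.22). With each library clustered alone, these 3 leading genes were among those of treated lymphocyte-like clusters but of no naive one. The subtype mix of the class also differed. Cd8a stood at 133, 88.9 and 39.4 CPM in WT, Cd226-/- and naive CD45+ skin, Trdc at 812, 1328 and 1582 and Ncr1 at 29.2, 40.6 and 87.9. The part of this mix in the Cdkn1a difference was not tested.

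**Figure D2:**
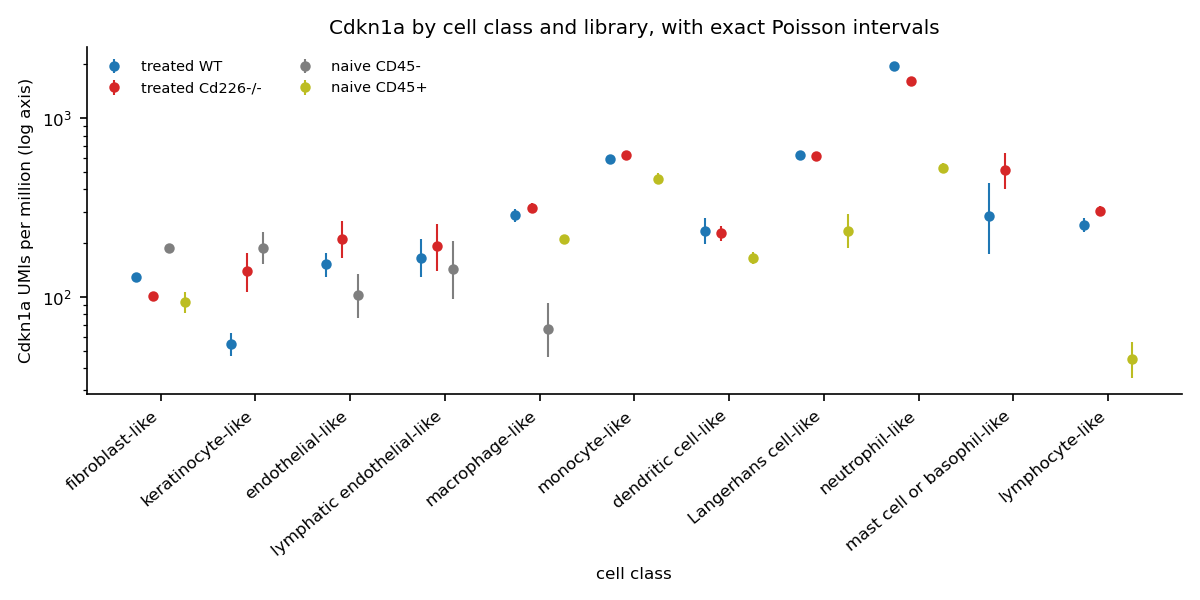
Cdkn1a level (CPM, log axis) in each cell class, 1 point per library with its exact Poisson 95% interval. Treated neutrophil-like cells reach 1960 and 1618 against 527 in naive skin, treated lymphocyte-like cells 254 and 301 against 44.9, while fibroblast-like cells are highest in the naive CD45- library at 189.

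Macrophage-like cells held 286 (263 to 310) CPM of Cdkn1a in WT, 316 (296 to 337) in Cd226-/- and 212 (206 to 219) in naive CD45+ skin. These ratios of 1.35 (1.23 to 1.47) and 1.49 (1.38 to 1.60) stayed under 1.5-fold, but the class joins 2 clusters with different values. In the cluster led by Ccl8, Folr2 and C1q genes and including Cd163, markers of tissue-resident macrophages, Cdkn1a was at 261 and 326 CPM against 94.1, or 2.77-fold (2.45 to 3.13) and 3.46-fold (3.13 to 3.84). In the cluster led by Ms4a7 and Trem2, it was at 363 and 278 against 300, with ratios of 1.21 (1.04 to 1.40) and 0.925 (0.790 to 1.08). That second cluster held 999 of the 1781 naive macrophage-like cells but only 122 of 337 and 122 of 382 treated ones, so the class value mixed the clusters in different proportions. No member in WT (0 of 8) and 3 of 8 in Cd226-/- were past 1.5-fold against naive macrophage-like cells, with 20.7% and 24.9% of all genes. The 3 were Gdf15, Sesn2 and Phlda3, all lower and described below. The Phlda3 class ratio of 0.618 had an interval (0.219 to 1.42) that includes 1. Inside the Folr2 and Trem2 clusters its ratios were 0.801 and 1.04 and those of Gdf15 0.702 and 0.752, none past 1.5-fold. Those of Sesn2 were 0.715 and 0.194 (0.00485 to 1.11), the second past 1.5-fold but from 1 Cd226-/- UMI. In the Trem2 cluster Trp53 at 0.572 (0.310 to 0.970) and Mdm2 at 0.646 (0.423 to 0.948) were also past it. Their ratios in the Folr2 cluster were 1.07 and 1.34.

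Monocyte-like and dendritic cell-like cells stayed under 1.5-fold for Cdkn1a. Monocyte-like cells held 590, 624 and 460 CPM in WT, Cd226-/- and naive CD45+ skin, with ratios of 1.28 (1.18 to 1.39) and 1.36 (1.26 to 1.46). Dendritic cell-like cells held 233, 228 and 165. Of their measured members, 0 of 6 dendritic cell-like values in Cd226-/- were past 1.5-fold against naive skin, where 19.3% of genes were, and 0 of 5 monocyte-like values in WT, where 13.7% were. In Cd226-/- monocyte-like cells 2 of 7 were (Gdf15 and Sesn2, both higher), against 16.6% of genes. Langerhans cell-like cells, which expressed Cd207 and Mfge8 but also Ccr7, a gene of mature migrating dendritic cells, held 620 (591 to 651) and 613 (588 to 640) CPM in the treated libraries. The 30 such cells of naive CD45+ skin held 235 (188 to 290), too few cells for a ratio here. Those naive cells also differed in the class's own markers: Mfge8 stood at 270 CPM, beside 6002 and 7539 in the treated cells, Il1r2 at 51.3 beside 644 and 571, and the summed Langerhans markers at 1540 beside 8110 and 9397.

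Among structural cells, endothelial-like cells held 152 (129 to 177), 211 (165 to 265) and 102 (76.1 to 134) CPM of Cdkn1a in WT, Cd226-/- and naive CD45- skin. In the same cells fibroblast markers summed to 3962, 283 and 32385 CPM and dissociation stress genes to 11903, 15960 and 21854, and their part in the difference was not tested. Keratinocyte-like cells were low in WT, at 54.6 (46.9 to 63.1) from 210 cells, beside 139 (107 to 177) from 24 cells in Cd226-/- and 189 (153 to 231) from 63 cells in naive skin. The keratinocyte-like cells were not alike across libraries. Krt1 and Krt10, keratins of differentiated layers, stood at 1103 and 2020 CPM in naive skin but at 0 and 28.5 in WT and 0 and 34.2 in Cd226-/-, while Krt17, a keratin of activated epidermis, was at 1943, 1242 and 687 in WT, Cd226-/- and naive skin. Dissociation stress genes summed to 7922, 7430 and 25042 CPM there, and fibroblast markers, which keratinocytes should lack, to 1774, 2855 and 43339. Neutrophil markers summed to 759, 14586 and 15.8 CPM. In the same cells Bax read 139 (127 to 152), 126 (96.0 to 163) and 55.2 (36.7 to 79.8) CPM, Trp53 134, 162 and 73.0, and Ccng1 23.7, 23.5 and 45.4. The class is under the minimum of 100 cells in 2 of these libraries, so no ratio is given. What part the cell mixture and the fibroblast and neutrophil RNA had in these values was not tested.

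Fibroblast-like cells, the most numerous class (4060 in WT, 2759 in Cd226-/-, 10111 in naive CD45- and 155 in naive CD45+ skin), measured all 10 members. Against naive CD45- skin, 7 of 10 members were past 1.5-fold in WT, 6 higher and 1 lower, where 32.0% of all genes tested in this class were past it. In Cd226-/- 6 of 10 were, 4 higher and 2 lower, where 38.0% of all genes were. The 2 comparisons share the naive library. Under the trimmed-mean scaling all ratios in this class moved down by 0.19 on the log2 scale, which left Cdkn2b and Sesn2 in WT under the threshold at log2 0.45 and 0.53. The same shift took Cdkn1a in WT, at log2 -0.55 before it, past the threshold downward.

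Trp53 in fibroblast-like cells stood at 60.3 (58.0 to 62.6) CPM in WT, 69.5 (66.8 to 72.2) in Cd226-/-, 33.5 (32.1 to 34.8) in naive CD45- and 44.8 (36.7 to 54.1) in naive CD45+ skin. Both treated libraries were above both naive ones, by 1.80-fold (1.70 to 1.90) and 2.08-fold (1.96 to 2.20) against naive CD45-. Bax, the effector of mitochondrial cell death, followed the same order with 137, 154, 72.7 and 109 CPM. Phlda3 had the largest ratio, with 69.8 (67.4 to 72.3), 61.8 (59.3 to 64.4), 18.7 (17.7 to 19.7) and 52.3 (43.5 to 62.3) CPM. Its ratios to naive CD45- were 3.74 (3.51 to 3.99) and 3.31 (3.09 to 3.55), but the naive CD45+ fibroblast-like cells also lay 2.80-fold above the naive CD45- ones.

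The arrest genes of fibroblast-like cells did not move together. Cdkn1a was lower after treatment, at 129 (126 to 133) CPM in WT and 101 (97.4 to 104) in Cd226-/- against 189 (186 to 192) in naive CD45- skin, or 0.684-fold (0.663 to 0.706) and 0.532-fold (0.513 to 0.552). Cdkn2a was higher at a low level, with 3.11 and 2.63 CPM against 1.16, from 140, 97 and 81 UMIs, or 2.67-fold (2.02 to 3.56) and 2.26-fold (1.67 to 3.07). Cdkn2b stood at 13.2, 10.6 and 8.47 CPM, past 1.5-fold in WT only, with ratios of 1.56 (1.39 to 1.75) and 1.26 (1.10 to 1.43); the Cd226-/- to WT ratio was 0.807 (0.709 to 0.918). Inside 3 clusters that ratio was above 1, at 1.32 (1.07 to 1.61) in cluster 9, 1.80 (1.19 to 2.76) in cluster 2 and 2.47 (1.53 to 3.92) in cluster 18, and in clusters 3, 6 and 23 it was 0.894, 0.717 and 0.892 with intervals that include 1. Cluster 9, where Cdkn2b was high, made up 23.3% of WT and 7.54% of Cd226-/- fibroblast-like cells.

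Mdm2 and Ccng1, 2 direct p53 targets, differed little in the class sum, with ratios to naive CD45- of 1.01 (0.935 to 1.08) and 0.970 (0.896 to 1.05) for Mdm2 and of 0.984 (0.927 to 1.04) and 1.05 (0.989 to 1.12) for Ccng1. Gdf15 was lower, at 10.6 and 9.48 CPM against 21.9, or 0.485-fold (0.437 to 0.538) and 0.433-fold (0.385 to 0.487). Sesn2 stood at 5.00, 4.04 and 3.04 CPM, or 1.64-fold (1.36 to 1.99) and 1.33-fold (1.07 to 1.64). The members known as p53 targets were thus split. Bax and Phlda3 lay above naive CD45- skin. Sesn2 did too, past 1.5-fold in WT only and not after trimmed-mean scaling. Mdm2 and Ccng1 lay within counting error of naive CD45- skin (trimmed-mean scaling sets both 0.19 lower on the log2 scale). Cdkn1a and Gdf15 lay below it.

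**Figure D3:**
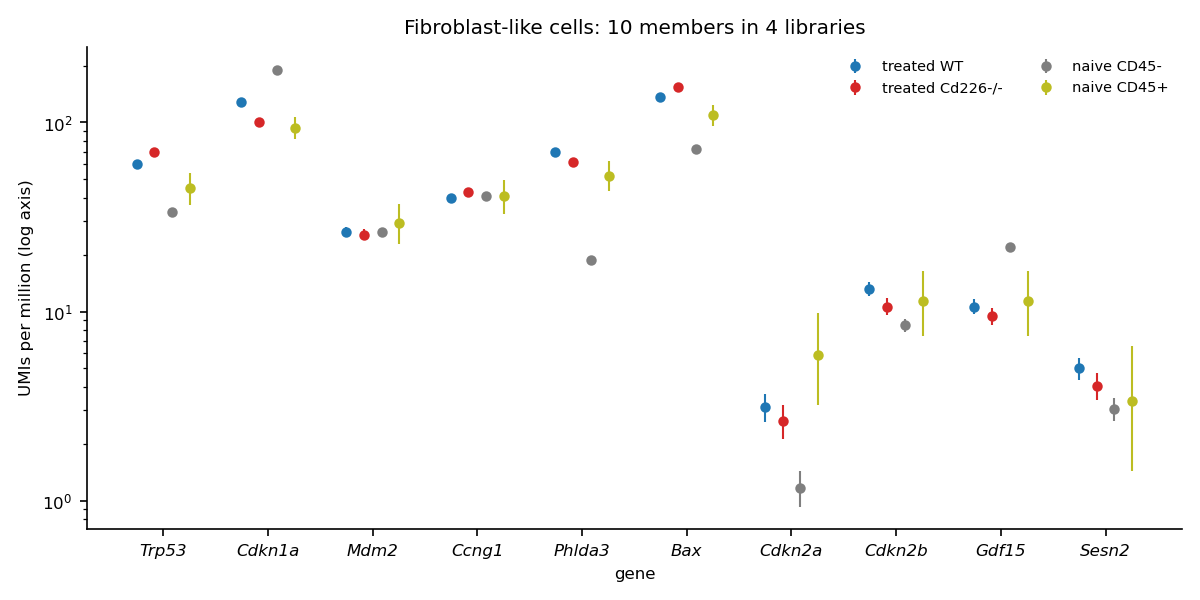
Levels of the 10 members in fibroblast-like cells (CPM, log axis) in the 4 libraries, with exact Poisson 95% intervals. For Phlda3, Bax and Cdkn1a the 155 naive CD45+ cells (52.3, 109 and 93.7) lie nearer the treated libraries than the naive CD45- cells do (18.7, 72.7 and 189), while the intervals of Mdm2 and of Ccng1 lie close together in all 4 before any trimmed-mean shift.

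The fibroblast differences depended on which naive cells they were set against. With the 155 fibroblast-like cells of the naive CD45+ library as baseline, 1 of 10 members was past 1.5-fold in WT (Cdkn2a, lower, 0.531) and 2 of 10 in Cd226-/- (Trp53, higher, 1.55, and Cdkn2a, lower, 0.449), while 27.5% and 31.5% of all genes were. The Cdkn2a intervals were 0.306 to 0.996 and 0.255 to 0.851, from 14 naive UMIs. Those 155 cells had a median depth of 15312 UMIs, beside 6587 in the naive CD45- fibroblast-like cells. Between the 2 naive libraries themselves 5 of 10 members were past 1.5-fold, and Cdkn1a was 0.496-fold (0.433 to 0.566) in CD45+ against CD45- skin. The clusters also differed: clusters 2, 3, 6, 9 and 18 held 93.0% of WT and 96.2% of Cd226-/- fibroblast-like cells but 2.33% of naive CD45- and 34.2% of naive CD45+ ones. Summed fibroblast markers were 68579, 53518, 168637 and 82993 CPM in the order WT, Cd226-/-, naive CD45-, naive CD45+. Treatment, library and fibroblast subtype therefore cannot be told apart in the class sums.

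Cluster 2, led by Ptx3, Gpx3 and Dpt, allowed a comparison within 1 cluster, with 842 WT, 795 Cd226-/- and 160 naive CD45- cells. Trp53 there was at 63.7, 78.0 and 34.7 CPM, or 1.84-fold (1.26 to 2.79) and 2.25-fold (1.55 to 3.40). Bax was at 140, 162 and 85.5, or 1.64-fold (1.29 to 2.12) and 1.90-fold (1.49 to 2.45). Ccng1, level in the class sum, was at 43.8, 43.0 and 24.8, or 1.77-fold (1.13 to 2.92) and 1.74-fold (1.11 to 2.86). Trp53 and Bax thus kept their direction within the cluster, whereas Phlda3 turned, with 45.9, 66.4 and 90.4 CPM or 0.507-fold (0.396 to 0.659) and 0.734-fold (0.578 to 0.946). Cdkn1a, at 186, 125 and 141 CPM, had ratios of 1.31 (1.09 to 1.60) and 0.884 (0.730 to 1.08). In all, 5 of 7 measured members in WT and 5 of 8 in Cd226-/- were past 1.5-fold in this cluster, where 32.6% and 40.2% of genes were, 4 higher and 1 lower in WT and 5 higher and 0 lower in Cd226-/-. Gdf15 was among the higher ones, 7.55-fold (1.32 to 301) and 4.46-fold (0.774 to 179), opposite to its class sum, but the naive cells held 1 UMI of it. Cdkn2b, also higher in Cd226-/-, had 77 UMIs there and 0 in the naive cells. Cluster 10, led by Clec3b, Dcn and Gpx3, also allowed a comparison, with 121 WT and 937 naive CD45- cells. Its WT ratios were 0.695 (0.388 to 1.16) for Trp53, 1.26 (0.976 to 1.62) for Bax and 0.796 (0.444 to 1.34) for Ccng1. Those of Phlda3, Cdkn1a and Gdf15 were 1.71 (1.26 to 2.28), 0.740 (0.571 to 0.945) and 0.278 (0.0562 to 0.842). Trp53, Ccng1, Phlda3, Cdkn1a and Gdf15 thus went opposite to cluster 2, with Trp53 and Ccng1 intervals that include 1.

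Across fibroblast-like clusters Cdkn1a went with the dissociation stress genes. It ran from 63.4 CPM in naive cells of cluster 0 (led by Sfrp2 and Mfap5), where those genes summed to 10884 CPM, to 406 CPM in naive cells of cluster 12 (led by Dpt and Clec3b), where they summed to 41286. Both extremes were naive. Over the 18 pairs of cluster and library with at least 100 cells, log2 levels of Cdkn1a and of the stress sum had a Pearson r of 0.85 and a Spearman rho of 0.92, and r was 0.93 with the integrated stress response genes. Trp53 ran instead with the cell cycle genes, with r = 0.95. For the class as a whole, the stress sums were 20604 (WT), 17072 (Cd226-/-), 24813 (naive CD45-) and 15826 (naive CD45+), the same order as the Cdkn1a levels of 129, 101, 189 and 93.7 CPM. These points share libraries, depth and cell isolation, and the part of isolation in the Cdkn1a level was not tested. Over 23 class values the relation was weaker, with r = 0.56 and rho = 0.41 for Cdkn1a and the dissociation stress sum and r = 0.78 and rho = 0.72 for the integrated stress response. Trp53 and the cell cycle genes did not run together there, with r = 0.16 and rho = 0.06.

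**Figure D4:**
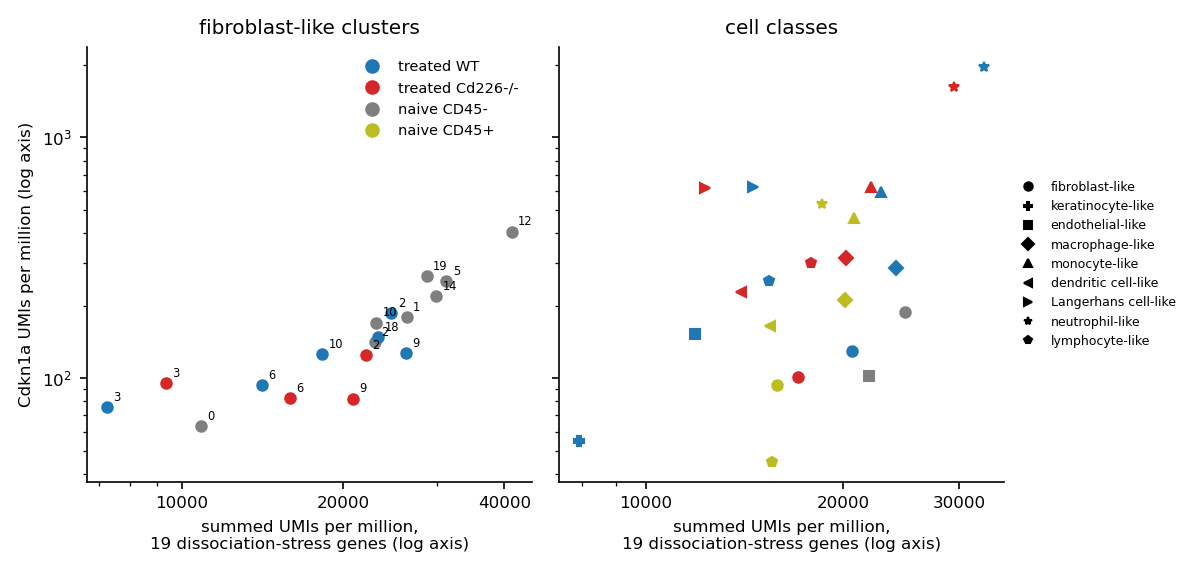
Cdkn1a level against the summed level of 19 dissociation stress genes (both CPM, log axes), at left over fibroblast-like clusters (cluster numbers beside the points) and at right over cell classes, coloured by library. At left the points climb from 63.4 in naive cluster 0 to 406 in naive cluster 12, while at right treated neutrophil-like cells stand above the rest at 1960 and 1618.

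Bax outside fibroblast-like cells was higher after treatment in neutrophil-like cells, where it was low: 55.3 (42.4 to 70.9) CPM in WT, 63.8 (52.7 to 76.5) in Cd226-/- and 33.7 (25.7 to 43.3) in naive CD45+ skin. The ratios were 1.64 (1.13 to 2.38) and 1.89 (1.37 to 2.63), and under trimmed-mean scaling that of WT fell to log2 0.53, below the threshold. Within the main neutrophil-like cluster Bax in naive skin was at 28.0 CPM, and the ratios to it were 0.872 (0.462 to 1.56) in WT and 0.749 (0.430 to 1.26) in Cd226-/-. The smaller neutrophil-like cluster 28, with 54 WT, 77 Cd226-/- and 6 naive CD45+ cells, held 98.8 and 122 CPM in the treated libraries, so the class sums joined clusters in different proportions. Monocyte-like cells (208, 207 and 189 CPM) and lymphocyte-like cells (176, 193 and 184) had intervals that overlapped in all 3 libraries. Lymphatic endothelial-like cells held 245 (200 to 297), 269 (207 to 344) and 153 (105 to 216) CPM in WT, Cd226-/- and naive CD45- skin.

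Phlda3 belonged to structural cells. Endothelial-like cells held 45.1 (33.2 to 60.0) CPM in WT, 60.7 (37.6 to 92.7) in Cd226-/- and 15.7 (6.77 to 30.9) in naive skin. The WT value was 2.88-fold (1.35 to 7.05) the naive one, the only 1 of 4 measured members past 1.5-fold in this class, where 23.1% of genes were. That call rests on 8 naive UMIs and did not hold when each library was clustered alone, and the part of the fibroblast RNA given above was not tested. Monocyte-like cells held between 0.506 and 0.861 CPM, from 1 to 7 UMIs, and neutrophil-like cells of WT none.

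Ccng1 was even among the larger classes, between 29.3 and 49.3 CPM in fibroblast, macrophage, monocyte, dendritic, Langerhans and lymphocyte-like cells. Neutrophil-like cells lay lower, at 18.7, 15.9 and 18.5 CPM. The 23 skeletal muscle-like cells, nearly all from naive CD45- skin, stood apart with 462 (342 to 611) CPM from 49 UMIs, and also held 254 (168 to 370) CPM of Phlda3.

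Cdkn2b and Cdkn2a were concentrated in few cells. Within the fibroblast-like class, cluster 23 (led by Apod, Dcn and Ccl11, with Gpc3 and Smoc2) held Cdkn2b at 175 (137 to 221) CPM in WT, 156 (116 to 207) in Cd226-/- and 160 (120 to 208) in naive CD45- skin, from 91, 51 and 90 cells. Treated and naive cells of this cluster did not differ beyond counting error. They held 12.0%, 12.5% and 9.32% of the class's Cdkn2b UMIs while being 2.24%, 1.85% and 0.89% of its cells. Cdkn2a in the same cells was at 29.7 (15.3 to 51.8), 79.8 (51.7 to 118) and 29.0 (13.9 to 53.4) CPM, from 12, 25 and 10 UMIs.

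Cluster 9, led by Postn and collagen genes, gave the largest share of both genes in treated fibroblast-like cells. It had 948 WT and 208 Cd226-/- cells but only 14 of naive CD45- skin. Cdkn2b there was at 22.5 (20.2 to 25.0) and 29.7 (24.9 to 35.1) CPM and Cdkn2a at 6.10 (4.93 to 7.47) and 7.64 (5.32 to 10.6). It supplied 58.4% of the WT and 34.6% of the Cd226-/- class UMIs of Cdkn2b, and 67.1% and 36.1% of those of Cdkn2a. Cluster 18, led by Mfap4, Tnc and Grem1, had 11.7 and 28.8 CPM of Cdkn2b and 4.72 and 6.51 of Cdkn2a. Cluster 3, with 911 WT and 857 Cd226-/- cells, had 0 Cdkn2a UMIs in WT and 1 in Cd226-/-. Most Cdkn2a UMIs of WT fibroblast-like cells thus came from a cluster that naive CD45- skin hardly held.

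**Figure D5:**
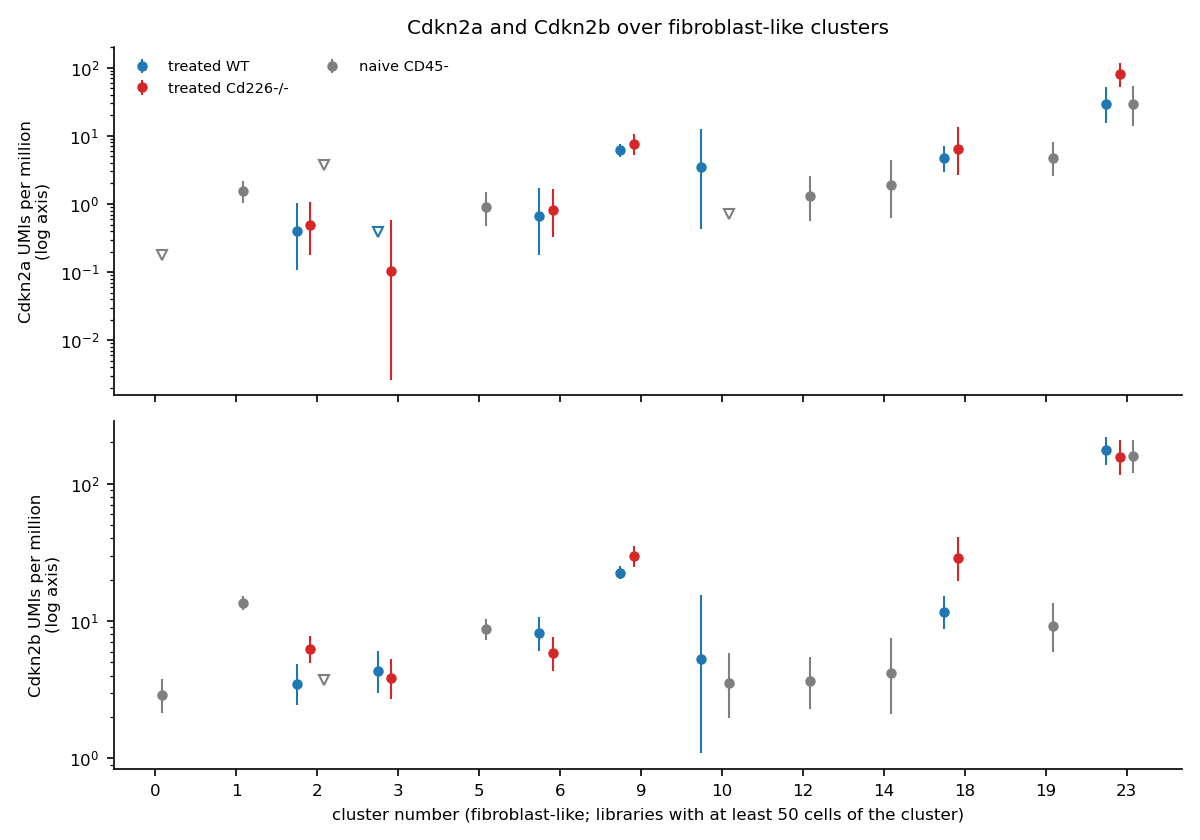
Cdkn2a (top) and Cdkn2b (bottom) in fibroblast-like clusters, in CPM (log axis), for libraries with at least 50 cells of the cluster; bars are exact Poisson 95% intervals and open triangles mark the level that 3 counts would give where none were counted. Cluster 23 is highest for both genes, with Cdkn2b at 175, 156 and 160, and cluster 9 follows at 22.5 and 29.7.

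Among named immune classes, Cdkn2b was highest in Langerhans cell-like cells. It was there at 32.5 (26.0 to 40.2) CPM in WT, 35.8 (29.9 to 42.6) in Cd226-/- and 73.0 (48.1 to 106) in the 30 cells of naive CD45+ skin, which were low in Mfge8 and Il1r2. Dendritic cell-like cells held 1.64, 1.13 and 2.16 CPM, from 8 UMIs at most. Monocyte-like cells held no UMI of either gene in any of the 3 libraries, which in the 1112 Cd226-/- cells leaves an upper interval bound of 0.454 CPM. Cdkn2a in Langerhans cell-like cells was at 4.59, 7.05 and 13.5 CPM, with intervals that all overlap. Lymphocyte-like cells held 7.16, 4.39 and 2.43 CPM of Cdkn2a, from 13, 13 and 4 UMIs. An unnamed cluster of dividing immune cells (led by histone genes, Gzma and Top2a) had 16.2 (8.62 to 27.7), 6.67 (2.45 to 14.5) and 11.6 (6.62 to 18.8) CPM of Cdkn2a, and 272, 211 and 142 of Cdkn1a. It was left unnamed because its lymphocyte and macrophage marker scores were close, 4.02 and 3.8. With each library clustered alone, dividing naive cells scored highest as macrophages and dividing treated cells as lymphocytes. These values may therefore compare different cell mixtures.

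Gdf15 stood highest in lymphatic endothelial-like cells, at 891 (803 to 985) CPM in WT, 175 (126 to 238) in Cd226-/- and 234 (173 to 310) in naive CD45- skin. These values rest on 84, 42 and 60 cells. One WT cell gave 87 of the 375 UMIs, and 1 Cd226-/- cell 20 of 41. Fibroblast markers in these cells summed to 3489, 325 and 52197 CPM. In endothelial-like cells 1 WT cell gave 39 of 47 UMIs, so the 45.1 CPM of that class is mostly 1 cell's value.

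Macrophage-like cells held Gdf15 at 24.9 (18.5 to 32.7) CPM in WT, 15.8 (11.6 to 21.1) in Cd226-/- and 36.9 (34.2 to 39.8) in naive CD45+ skin. Cd226-/- was below naive skin, 0.427-fold (0.310 to 0.576), and below WT, 0.635-fold (0.417 to 0.965). In the Trem2 cluster the values were 53.2, 41.5 and 55.2 CPM and in the Folr2 cluster 15.5, 8.74 and 12.5, so the Trem2 cluster, more frequent in naive skin, held more Gdf15 in each library. Sesn2 in macrophage-like cells was at 5.85, 2.74 and 6.55 CPM and Phlda3 at 3.41, 2.06 and 3.33, the Cd226-/- values resting on 8 and 6 UMIs.

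Monocyte-like cells had low Gdf15, at 5.93 (3.45 to 9.49), 8.24 (6.39 to 10.5) and 1.52 (0.313 to 4.44) CPM in WT, Cd226-/- and naive CD45+ skin. The naive value is 3 UMIs, and the Cd226-/- ratio of 5.43 (1.78 to 27.0) turned direction when cells were clustered more finely or by library. Neutrophil-like cells held 1 UMI in WT, 19 in Cd226-/- and 17 in naive skin, a Cd226-/- to WT ratio of 11.7 (1.86 to 486) that is below the minimum of 50 UMIs.

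Sesn2 was highest in neutrophil-like cells, with 36.6 (26.2 to 49.6), 37.4 (29.0 to 47.4) and 48.8 (39.1 to 60.2) CPM in WT, Cd226-/- and naive CD45+ skin. Langerhans cell-like cells came next, with 23.3, 18.1 and 35.1, the last from the 30 naive cells low in Mfge8. The 3 libraries overlapped in both classes. Monocyte-like cells read 8.71, 7.38 and 4.55 CPM, and the Cd226-/- call there, 1.62 (0.800 to 3.72), has an interval that includes 1. The gene thus shared with Cdkn1a a high level in neutrophil-like cells, but not the difference between treated and naive ones.

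Between the 2 treated libraries, few class sums of the members were past 1.5-fold. Over the 6 classes compared, 1 of 40 member values was past 1.5-fold, Gdf15 in macrophage-like cells. In fibroblast-like cells 0 of 10 were, where 12.1% of all genes were past it, in Langerhans cell-like cells 0 of 7 (8.74%), in lymphocyte-like cells 0 of 5 (14.3%), in monocyte-like cells 0 of 7 (8.82%) and in neutrophil-like cells 0 of 5 (10.8%). In macrophage-like cells it was 1 of 6, where 9.04% of genes were. The one call was lost under a stricter mitochondrial filter and with each library clustered alone, where Gdf15 was higher in Cd226-/-. Smaller differences of class sums were outside counting error. Cdkn1a in Cd226-/- was 0.778-fold (0.747 to 0.811) that of WT in fibroblast-like cells, 0.825-fold (0.781 to 0.873) in neutrophil-like cells and 1.19-fold (1.06 to 1.33) in lymphocyte-like cells. Inside fibroblast-like clusters its ratios ran from 0.648 (0.579 to 0.724) in cluster 9 to 1.26 (1.13 to 1.40) in cluster 3. In lymphocyte-like clusters 11 and 22 they were 0.934 (0.811 to 1.08) and 1.06 (0.835 to 1.36). Cluster 22, higher in Cdkn1a, held 60 WT and 166 Cd226-/- cells. Neutrophil-like clusters 13 and 28 gave 0.778 (0.728 to 0.830) and 0.984 (0.883 to 1.10). Fibroblast Trp53 was 1.15-fold (1.09 to 1.22) and Bax 1.12-fold (1.08 to 1.16). A difference of this size between 2 pools of mice has no replicate check. Single clusters and small classes differed more. Gdf15 in Cd226-/- was 0.591-fold (0.426 to 0.816) that of WT in fibroblast-like cluster 2 and 0.276-fold (0.108 to 0.589) in cluster 18, but 1.81-fold (1.35 to 2.46) in cluster 6 and 1.62-fold (1.24 to 2.09) in cluster 9. Cdkn2b was 1.80-fold in cluster 2 and 2.47-fold in cluster 18, and Phlda3 0.485-fold (0.279 to 0.813) in cluster 23. In classes with under 100 cells in a library, Gdf15 stood at 891 and 175 CPM in lymphatic endothelial-like cells and at 45.1 and 11.6 in endothelial-like cells, and Cdkn1a at 54.6 and 139 in keratinocyte-like cells.

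A wider list of 40 p53 targets, with the members left out, was read in the same way. In fibroblast-like cells of WT against naive CD45- skin, 39 were measured, of which 23 were higher and 16 lower. Their median log2 ratio was 0.29, beside 0.18 over all genes. Past 1.5-fold were 10 upward and 6 downward, where 19.8% of all genes were past it upward and 12.2% downward. Fas, a death receptor, was at 36.7 CPM against 9.15, 4.01-fold (3.66 to 4.40). Cgref1, a growth regulator, was at 18 against 111, 0.163-fold (0.151 to 0.175). In Cd226-/- 35 were measured, 21 higher and 14 lower, with a median of 0.33 beside 0.17, and Aen, a nuclease of p53-driven cell death, was at 41.6 against 11.4 CPM. Targets of p53 were thus found in both directions, and after trimmed-mean scaling the list's medians were 0.11 and 0.15. In lymphocyte-like cells 7 of 18 (WT) and 13 of 27 (Cd226-/-) were higher. The list medians there were -0.06 and -0.04, beside -0.10 and -0.02 over all genes. Pmaip1, which encodes the death factor Noxa, was at 25.9 and 38.5 CPM against 8.49, and Sesn1, a sestrin, at 6.61 and 10.5 against 30.9. In neutrophil-like cells 8 of 14 and 7 of 14 were higher, with medians of 0.16 and 0.03 beside 0.01 and 0.17 over all genes. Rps27l was at 105 and 114 against 41.0, while Fas was at 96.3 and 72.6 against 230.

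The other lists in fibroblast-like cells, WT against naive CD45-, gave the following counts. Of all genes in that comparison, 19.8% were past 1.5-fold upward and 12.2% downward. Of 10 p53 brakes and modifiers, 9 were higher and 2 past 1.5-fold, with Mdm4, a relative of Mdm2, at 30.5 against 23.7 CPM. Of 12 cyclin-dependent kinase inhibitors and RB pathway genes, 7 were higher, 2 past upward and 2 downward. Cdkn1c, the p57 inhibitor, was at 174 in WT, 118 in Cd226-/- and 71.0 CPM in naive skin.

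Of the 26 measured senescence-associated secretory genes, 21 were higher, with a median log2 ratio of 1.02. Past 1.5-fold were 19 upward and 3 downward, where 19.8% and 12.2% of all genes were. Timp1, a protease inhibitor, was at 893 against 38.3 CPM and the chemokine Cxcl2 at 156 against 8.14. The moving members of that list are also genes of inflammation, and some are immune genes: Il1b was at 16.4 against 0.459 CPM, while macrophage markers in the same cells summed to 310 against 48.3. Of 7 measured cell cycle genes 6 were higher (median 0.60), of 10 other senescence-linked genes 6 were (0.23), and of 12 measured BCL-2 family genes beside Bax 9 were (0.51), with Bok at 11.5 against 5.02 CPM. Of 13 integrated stress response genes 5 were higher (-0.23), and of 19 dissociation stress genes 9 were (-0.12). The secretory list stood furthest from the all-gene median of 0.18. The 2 stress lists lay below that median, and so did the cyclin-dependent kinase inhibitor and RB pathway list, slightly, at 0.15.

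By likeness of log2 levels over the 23 pairs of class and library, the genes nearest to Cdkn1a were Mcl1 (r = 0.91), Zfand2a (0.89) and Cxcl3 (0.89), and for Trp53 they were Sae1 (0.96), 2410015M20Rik (0.95) and Top2b (0.95). Mdm2 was nearest to Lpin2 (0.93), Bax to Trappc4 (0.96), Phlda3 to B9d1 (0.97) and Ccng1 to Lgals1 (0.88). For Cdkn2a, Cdkn2b, Gdf15 and Sesn2 the first genes were Spsb1 (0.88), Efna2 (0.94), Mgat1 (0.78) and Dusp16 (0.94). Among the members themselves the highest values were between Cdkn1a and Mdm2 (0.76), Cdkn1a and Sesn2 (0.72) and Trp53 and Bax (0.63). These are descriptions of 23 points from 4 libraries.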

How the data were processed

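Per the submitters' processing notes, the authors ran Cell Ranger 3.1.0 on Chromium 3′ v3.1 reads against mm10; the deposited files hold raw UMI counts per gene and cell for 31053 genes and 2 antibody tags, and the tags were not used as genes. The 4 libraries held 42043869 to 81406730 gene UMIs. Cells with at least 500 genes, 1000 UMIs and at most 10% mitochondrial UMIs were kept, and 160 to 625 cells per library were removed by a doublet score computed by the Scrublet method. All cells were clustered together (scanpy, 2000 variable genes without the members, 30 components, 15 neighbours, Leiden resolution 1.0) into 33 clusters and named from marker lists. Thresholds for naming were chosen with the clusters in view, and the names are rebuilt, not the authors'. UMIs were summed per class and library. In the lists a count of 0 was set to 3 for a fold, while the reported member ratios used the counts unchanged. Ratios and intervals were tested on simulated data. The members and lists were chosen with earlier results of these data known. From each list up to 4 genes per comparison were eligible to be named, those whose interval was farthest from equality; the 3 genes most like each member were those with the highest correlation of log2(CPM + 10), from which the first or all are given. Clusters and values within clusters outside these rules were chosen after their values had been seen. Alternatives covered scaling, per-cell means, filters, UMI minimums, doublets and clustering; 2 concerning fibroblast baselines were chosen after seeing the data. Promoter sequences are from RefSeq (GRCm38.p6), gene positions from GENCODE vM21. Python 3.11.15, numpy 2.4.6, pandas 2.3.3, scipy 1.17.1, scikit-learn 1.9.0, leidenalg 0.10.2 and matplotlib 3.10.9 were used.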

Additional observations from a re-analysis of the deposited data

Results flagged for a closer look

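Cdkn1a was past 1.5-fold in opposite directions in different classes of the same comparison. In Cd226-/- against naive skin it was 6.72-fold in lymphocyte-like and 3.07-fold in neutrophil-like cells but 0.532-fold in fibroblast-like cells. The immune classes were set against the naive CD45+ library and the fibroblast-like cells against the naive CD45- library, and the difference between the classes was not tested.

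Gdf15 did the same in that comparison. It was 5.43-fold in monocyte-like cells, from 3 naive UMIs, and 0.427-fold in macrophage-like and 0.433-fold in fibroblast-like cells. The monocyte-like value turned to -1.59 on the log2 scale with finer clustering and to -0.96 with each library clustered alone. Inside the 2 macrophage-like clusters the ratio was 0.702 and 0.752. This difference was not tested either.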

How the results depend on the processing

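No paired analysis was possible because each group is 1 library. The number of member values past 1.5-fold between Cd226-/- and WT was 1, and became 5 with a minimum of 20 UMIs, 11 with no minimum, 0 with at most 5% mitochondrial UMIs, and 2 with doublets kept or at Leiden resolution 2.0. Against naive skin the 12 values of WT became 22 and the 15 of Cd226-/- became 23 with no minimum; the other alternatives gave 11 to 16 and 13 to 17. On the log2 scale, Phlda3 in endothelial-like cells, WT against naive, turned to -0.06 with each library clustered alone. Gdf15 in macrophage-like cells, Cd226-/- against WT, turned to 0.13 with at most 5% mitochondrial UMIs and to 0.39 with each library clustered alone. Gdf15 in monocyte-like cells, Cd226-/- against naive, turned to -1.59 at resolution 2.0 and -0.96 with each library alone, and Sesn2 there to -0.19 at resolution 2.0. Trimmed-mean scaling turned the median of the wider p53 list in Langerhans cell-like cells, Cd226-/- against WT, from -0.02 to 0.03, in lymphocyte-like cells against naive from -0.06 to 0.05 (WT) and from -0.04 to 0.03 (Cd226-/-), and in neutrophil-like cells from 0.16 to -0.02 and from 0.03 to -0.18. The cause was not tested. Of the log2 ratios under alternatives, 162 stayed within the reported ratio's interval, 24 moved and 6 turned. Dendritic cell-like values with each library alone and endothelial-like values under the stricter mitochondrial filter were not obtained. Depth limited Cdkn2a, Sesn2 and Cdkn2b most.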
